A study of Mus musculus with 3 samples.

Results

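Imprinted genes are genes that are read mainly from the copy inherited from 1 parent. A list of 34 such genes, of 32285 genes annotated, was followed in 3 mouse aggregate types made from embryonic stem cells. The list was drawn up by name, with earlier results of these data known. Shares of members set beside shares of all genes are therefore a description. It holds 19 genes expressed from the paternal copy, 14 expressed from the maternal copy and Gnas, which makes transcripts of both kinds. All 34 were present in the count tables. Their levels were read in visceral endoderm (VE) cells, the outer extraembryonic layer, and in epiblast (Epi) cells, the layer that forms the embryo itself.

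The study asked which features of the early embryo arise from the exchange of signals between these 2 layers. Single cells were sequenced from 1 library of bilayered embryo-like aggregates, called BELAs, 1 of VE cysts and 1 of Epi cysts. All structures came from iGATA embryonic stem cells on the E14tg2a background, in which doxycycline switches on a GATA4 transgene that drives cells towards primitive endoderm, the precursor of VE. The labels name clone C6 for BELAs and VE cysts. BELAs received 0.5 µg/ml doxycycline for 8 h in 2i + LIF, then N2B27 medium for 16 h, and grew for 3 days in N2B27 after re-seeding. Their VE and Epi cells both came from this pulsed culture and assembled together. VE cysts received the same pulse and kept doxycycline for another 16 h together with FGF4 (10 ng/ml) and heparin (1 µg/ml). They then grew for 3 days with both factors. Epi cysts received no doxycycline and grew in matrigel for 1 day in 2i + LIF and 3 days in N2B27. About 200 BELAs and 200 VE cysts were picked by hand, and VE cysts with a visible Epi-like core were left out. Picking can have affected how many Epi cells the VE cyst library held. No group included extraembryonic ectoderm.

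Imprints are DNA methylation marks that are laid down in the germ line of 1 parent and kept in the embryo by proteins such as ZFP57, TRIM28 and DNMT1. Most imprinted genes sit in clusters that share 1 control region, and in many clusters a long noncoding RNA is made from the copy on which the protein-coding neighbours are silent. Many of the encoded proteins act on growth, with the paternally expressed Igf2 promoting it and the maternally expressed Igf2r, Cdkn1c, Grb10 and Phlda2 holding it back, and several genes are imprinted mainly in extraembryonic tissue. The counts used here do not separate the parental copies, so each parental class below is background knowledge, and a level says nothing about which copy was read.

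After cells with fewer than 4000 genes or with more than 10% mitochondrial molecules had been left out, 1410 of 2220 barcodes remained for BELAs, 625 of 881 for VE cysts and 657 of 1076 for Epi cysts. The libraries held 126625916, 39793263 and 40962566 unique molecules (UMIs) in those cells, and no barcode of a kept cell was shared between them. A cell was called VE where its UMIs of Gata6, Sox17, Dab2 and Cubn outnumbered those of Pou5f1, Sox2, Nanog and Fgf4, and Epi otherwise. This gave 542 VE and 868 Epi cells in BELAs, 577 VE and 48 Epi cells in VE cysts, and 1 VE and 656 Epi cells in Epi cysts. The single VE cell of Epi cysts was not used. Of the 48 Epi cells of VE cysts, 4 had equal sums. The paper holds that the few embryonic-type cells in VE cysts likely failed to become primitive endoderm because the transgene was too weakly induced. This was not tested here. The 8 further VE genes checked (Foxa2, Amn, Lrp2, Sox7, Hnf4a, Apoe, Gata4 and Ttr) were all at least 2-fold higher in VE than in Epi cells of both BELAs and VE cysts. Of 8 further Epi genes, 4 (Utf1, Tdgf1, Dnmt3b and Otx2) were lower in VE than in Epi cells of BELAs and 5 in VE cysts, where Fgf5 joined them. Sall4, Lin28a and Dppa5a did not pass 2-fold between lineages in either structure. RNA of the other lineage was nevertheless present. The 85 genes specific to VE cyst VE cells stood in BELA Epi cells at a median 1.5% of their BELA VE level. The 16 genes specific to Epi cyst Epi cells stood in BELA VE cells at a median 6.05% of their BELA Epi level. A member at a few percent of its level in the other lineage was therefore not read as expressed there.

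Levels are given as CPM, the UMIs of a gene per 1000000 UMIs of all cells in the group. Brackets after a level or a fold hold 95% intervals, exact Poisson for a level and exact conditional binomial for a fold. They cover the error of counting alone. With 1 library per aggregate type there was no replicate, no test was possible and cells were not treated as replicates. Genes were called higher or lower where the ratio of the groups, with 5 CPM added to each level, reached 2. The kit counts the 3′ ends of transcripts, so levels are not scaled by gene length and are compared between cells, not between genes. Whether the counting used the strand of the reads is not given in the sources used here, and overlaps with other genes are named where they occur. Gene coordinates are on mm10.

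The promoters of 4 members on which the results turn are shown because ZFP57, which keeps imprints in place, recognises the hexamer TGCCGC when its CpG is methylated. Each sequence is the RefSeq window from 250 bases before to 50 bases after the annotated start on GRCm38.p6, printed on the gene's own strand, with capitals marking the hexamer or its reverse complement GCGGCA. The first is Grb10 (chr11:12037371-12037670, minus strand), the second Mest (chr6:30737800-30738099, plus strand), the third Snrpn (chr7:60005150-60005449, minus strand) and the last Meg3 (chr12:109540746-109541045, plus strand).
Grb10: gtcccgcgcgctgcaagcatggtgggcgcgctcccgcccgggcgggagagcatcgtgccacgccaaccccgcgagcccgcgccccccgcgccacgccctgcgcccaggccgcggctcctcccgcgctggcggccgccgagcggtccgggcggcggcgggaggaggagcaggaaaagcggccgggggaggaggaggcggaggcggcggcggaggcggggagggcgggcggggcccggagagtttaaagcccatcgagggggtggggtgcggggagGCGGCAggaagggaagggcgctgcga
Mest: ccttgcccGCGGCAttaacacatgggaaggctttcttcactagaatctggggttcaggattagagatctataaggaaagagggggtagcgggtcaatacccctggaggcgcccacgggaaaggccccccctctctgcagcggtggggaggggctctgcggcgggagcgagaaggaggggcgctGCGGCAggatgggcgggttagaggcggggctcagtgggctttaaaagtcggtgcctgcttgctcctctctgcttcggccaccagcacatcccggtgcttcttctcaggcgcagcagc
Snrpn: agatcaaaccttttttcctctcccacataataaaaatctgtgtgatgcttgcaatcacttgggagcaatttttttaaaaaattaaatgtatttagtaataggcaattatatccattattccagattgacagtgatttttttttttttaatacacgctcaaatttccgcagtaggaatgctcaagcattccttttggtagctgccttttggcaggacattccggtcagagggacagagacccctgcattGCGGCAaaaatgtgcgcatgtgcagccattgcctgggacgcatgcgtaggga
Meg3: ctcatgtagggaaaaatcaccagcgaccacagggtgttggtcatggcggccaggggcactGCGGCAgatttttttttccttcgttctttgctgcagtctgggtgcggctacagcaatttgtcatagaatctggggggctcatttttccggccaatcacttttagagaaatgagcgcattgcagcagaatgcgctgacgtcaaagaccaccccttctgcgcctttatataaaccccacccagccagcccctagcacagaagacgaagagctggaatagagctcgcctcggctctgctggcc
Grb10, Snrpn and Meg3 each hold 1 hexamer and Mest holds 2. The windows were picked because they hold it, and RefSeq gives each of these genes other promoters: 1 further window of Grb10, 3 of Snrpn, 1 of Meg3 and 1 of Mest hold 0, and another of Mest overlaps the one shown. RefSeq promoter entries matched 29 of the 34 members, and 8 of these 29 (27.6%) held the hexamer on either strand in at least 1 promoter, against 3527 of 27025 genes (13.1%). Among promoters with 10 or more CpG the shares were 33.3% of members and 24.0% of all genes. The hexamer is a description of these windows only, since methylation was not measured and the control regions of several clusters lie elsewhere.

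Together the members took 0.204% of all UMIs in BELA VE and 0.233% in VE cyst VE cells, against 0.155% in BELA Epi, 0.178% in VE cyst Epi and 0.193% in Epi cyst Epi cells. In these 5 groups 26 of the 34 reached 5 CPM at least once. The other 8 (Ascl2, Slc22a18, Mirg, Usp29, Zim1, Mkrn3, Airn and Asb4) stayed between 0 and 4.64 CPM, the highest being Usp29 in VE cyst Epi cells and the 0 being Zim1 in the same cells. Gnas, Kcnq1ot1, Peg3, Ube3a and Impact were above 50 CPM in all 5 groups.

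**Figure D1:**
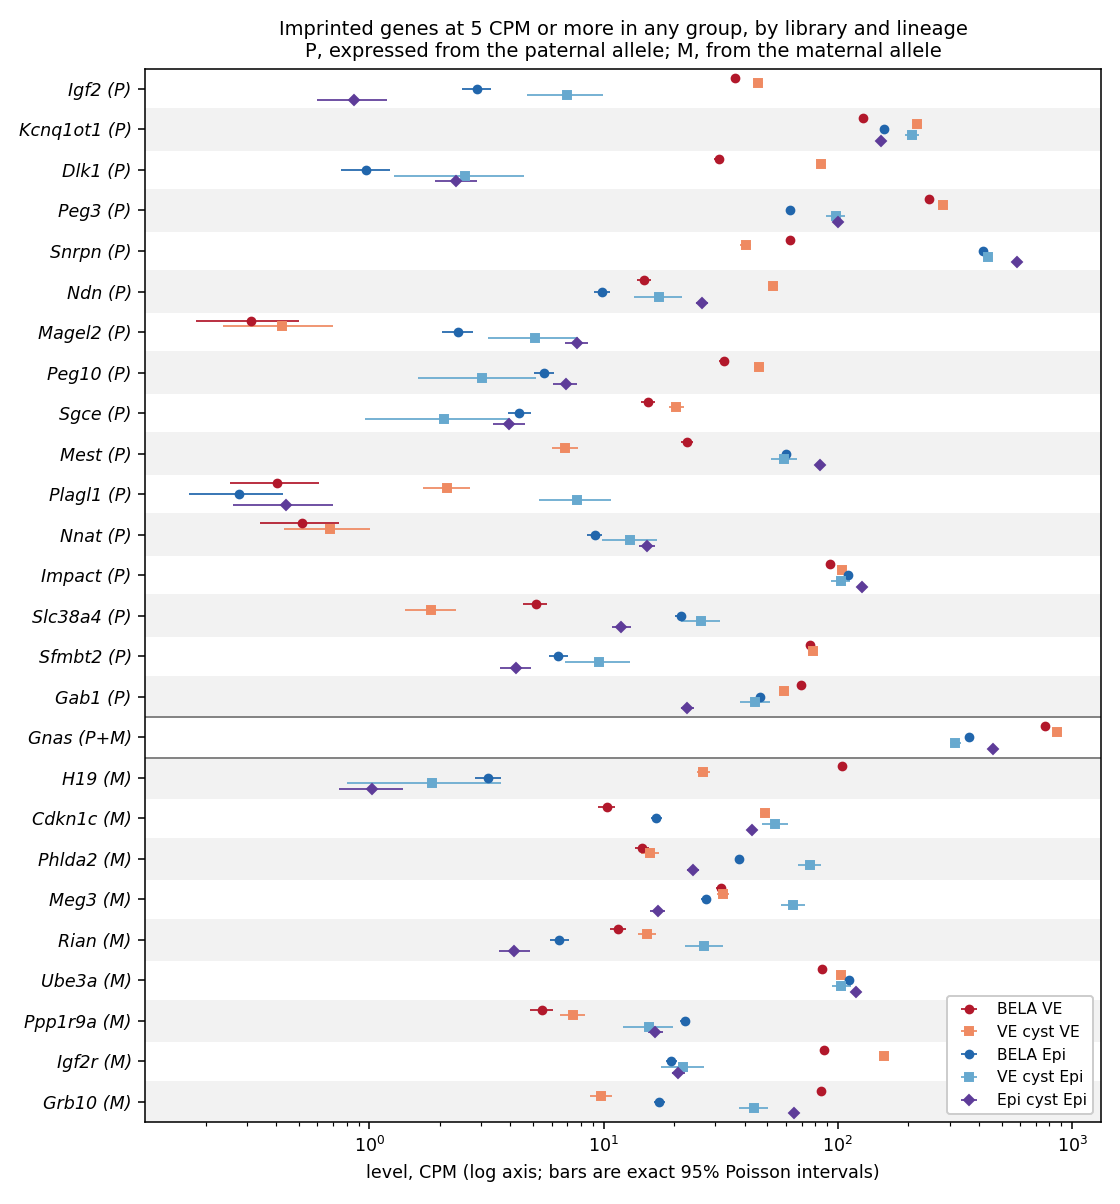
Level of the 26 members that reached 5 CPM in at least 1 group, in CPM on a log axis, for VE cells of BELAs and VE cysts and Epi cells of BELAs, VE cysts and Epi cysts. Points are group levels and bars are 95% Poisson intervals. Gnas is highest in the VE groups (766 CPM in BELA VE and 858 CPM in VE cyst VE cells), Snrpn is highest in the 3 Epi groups (416 to 580.4 CPM), and Igf2, H19, Dlk1 and Sfmbt2 are at 26.7 CPM or more in the VE groups and at most 9.52 CPM in the Epi groups.

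Comparing the lineages within BELAs, 10 of the 34 members were higher in VE than in Epi cells (29.4%, where 13.8% of 10095 genes were higher) and 6 were lower (17.6%, where 8.95% were lower). Within VE cysts, whose Epi group held only 48 cells, 10 members were higher in VE cells (20% of 10390 genes) and 6 were lower (11.8% of genes). Here and below, the shares of all genes cover genes of at least 5 CPM in either group. Counts of members and of listed genes also include those under 5 CPM. Of the 34 members, 24 reached that level in BELAs and 26 in VE cysts. The same 9 members were higher in VE cells of both structures: Igf2, H19, Dlk1, Peg3, Peg10, Sgce, Igf2r, Gnas and Sfmbt2. Phlda2, Snrpn, Mest, Nnat and Slc38a4 were lower in both. Grb10 was higher in VE than in Epi cells of BELAs and lower in VE than in Epi cells of VE cysts, Ndn passed 2-fold in VE cysts alone, Ppp1r9a passed it in BELAs alone, and 17 members passed it in neither.

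Members of both parental classes were found on both sides. In BELAs 6 of 19 paternally expressed genes were higher and 4 lower in VE cells, and 3 of 14 maternally expressed genes were higher and 2 lower. In VE cysts the counts were 7 and 4 of 19 for the paternal class and 2 and 2 of 14 for the maternal class. The median log2 ratio of all members was 0.09 in BELAs and -0.01 in VE cysts, beside medians of -0.06 and 0.12 over all genes.

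**Figure D2:**
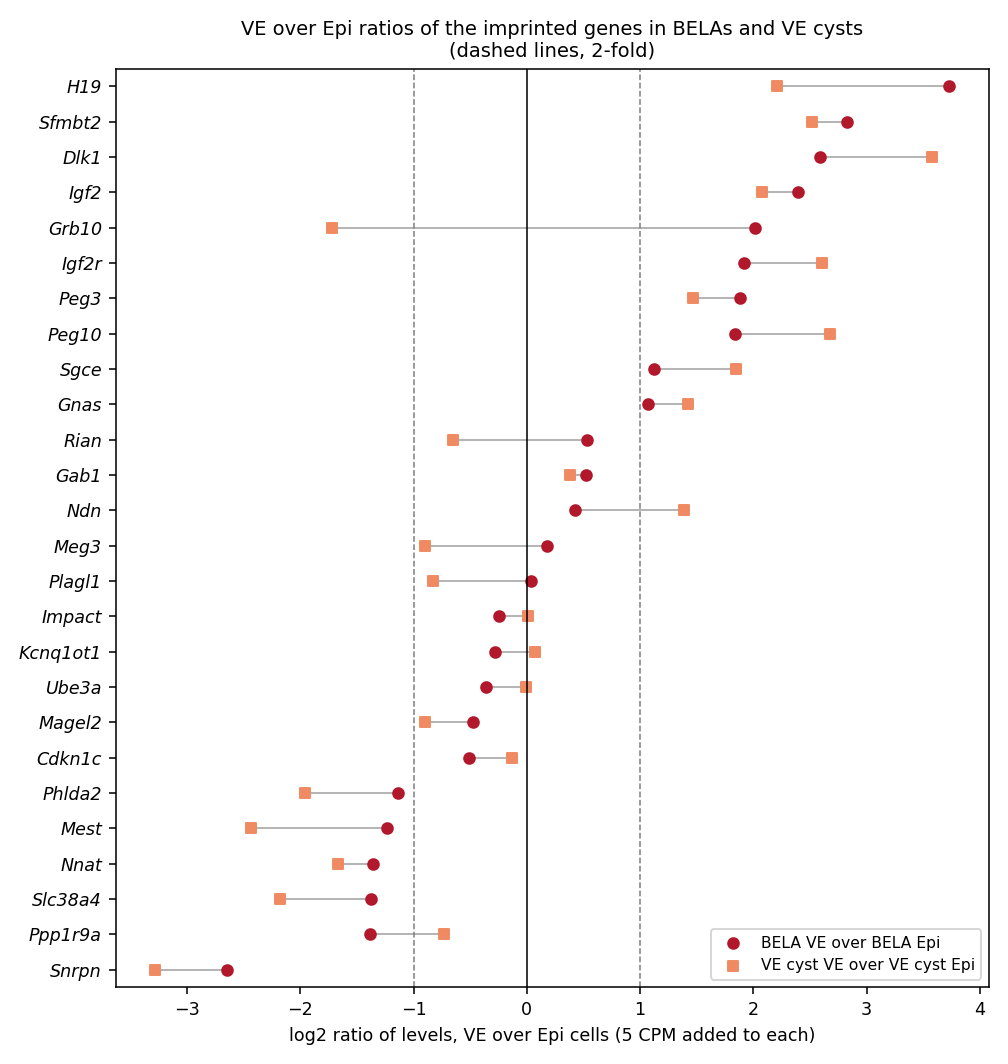
Log2 ratio of the level in VE over Epi cells, with 5 CPM added to each level, for the members in BELAs (circles) and VE cysts (squares), sorted by the BELA ratio. Dashed lines mark 2-fold. H19 (3.73) is at one end and Snrpn (-2.64) at the other in BELAs, and Grb10 is at 2.01 in BELAs and -1.72 in VE cysts.

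Igf2 (chr7:142650766-142666816), a growth factor of fetal and extraembryonic tissue, and H19 (chr7:142575529-142578143), a noncoding RNA that shares enhancers with it on the other parental copy, were both at least 6-fold higher in VE than in Epi cells. Igf2 was at 36.5 CPM (34.9 to 38.1) in BELA VE and 45.5 CPM (43.3 to 47.7) in VE cyst VE cells. In Epi cells it was at 2.87 CPM (2.49 to 3.29) in BELA Epi, 6.97 CPM (4.70 to 9.95) in VE cyst Epi and 0.856 CPM (0.596 to 1.19) in Epi cyst Epi cells. It was 12.7-fold higher (11.0 to 14.7) in VE than in Epi cells of BELAs and 6.52-fold higher (4.55 to 9.70) in VE cysts. H19 stood at 104 CPM (101 to 107) in BELA VE and 26.7 CPM (25.0 to 28.4) in VE cyst VE cells. Its Epi levels were 3.22 CPM (2.82 to 3.66) in BELA Epi, 1.86 CPM (0.802 to 3.66) in VE cyst Epi and 1.03 CPM (0.740 to 1.39) in Epi cyst Epi cells. Its level was 32.4-fold higher (28.4 to 37.1) in BELA VE than in BELA Epi cells. In VE cysts its level was 14.3-fold higher (7.25 to 33.3) in VE than in Epi cells. The VE cyst Epi levels of both genes rested on few cells, which the intervals do not cover. After thinning, 1 of 44 VE cyst Epi cells held H19, with 4 UMIs. Igf2 was in 4 of the 44, with 12 of its 20 UMIs in 1 cell. The BELA Epi level of H19 was 3.09% and that of Igf2 7.87% of the BELA VE level. H19 was 3.91-fold higher (3.65 to 4.19) in BELA VE than in VE cyst VE cells, while Igf2 differed less between them. Igf2 shares 98 exonic bases with the antisense gene Igf2os, whose level was at most 7.28 CPM.

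H19 and Igf2 also differed in how many VE cells held them. In cells thinned to 40000 UMIs H19 was seen in 41.8% of BELA VE cells and 18.0% of VE cyst VE cells (48.2% and 18.7% without thinning), and in 8.24% of BELA Epi cells, where it was near the level of RNA from other cells. The median BELA VE cell held 90251 UMIs and the median BELA Epi cell 78973. Genes within 1.5-fold of its level were seen in a median 95.7% of BELA VE cells. The tenth of cells with most H19 carried 66.1% of its UMIs in BELA VE cells and 92.4% in VE cyst VE cells, with up to 83 UMIs in 1 BELA VE cell. Igf2 was seen in 45.6% of BELA VE cells with H19 and in 60.9% of those without, and in 45.9% and 66.8% of VE cyst VE cells. The RNAs were thus not found preferentially in the same cells.

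Igf2r (chr17:12682406-12769664), the receptor that takes IGF2 to lysosomes for degradation, was at 87.0 CPM (84.5 to 89.5) in BELA VE and 158 CPM (154 to 162) in VE cyst VE cells. Its Epi levels lay close together, at 19.4 CPM (18.4 to 20.5) in BELA Epi, 21.8 CPM (17.6 to 26.7) in VE cyst Epi and 20.9 CPM (19.5 to 22.3) in Epi cyst Epi cells. The level in VE cells was 4.48-fold higher (4.22 to 4.76) in BELAs and 7.24-fold higher (5.90 to 8.97) in VE cysts. Airn, the paternal noncoding RNA that overlaps Igf2r on the opposite strand, was low in all groups, at 2.51 CPM in BELA VE and 4.03 CPM in VE cyst VE cells, against 0.472 CPM in BELA Epi, 0.929 CPM in VE cyst Epi and 0.196 CPM in Epi cyst Epi cells. If strand was not used, its reads cannot be told apart from unspliced Igf2r.

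Grb10 (chr11:11930508-12038683), an adaptor protein that dampens signalling from the insulin and IGF receptors, had the largest ratio of all members, with 5 CPM added, both between the VE groups and between BELA Epi and Epi cyst Epi cells. It was at 85.0 CPM (82.6 to 87.5) in BELA VE and 9.78 CPM (8.78 to 10.9) in VE cyst VE cells. Epi cells had 17.3 CPM (16.3 to 18.3) in BELAs, 43.7 CPM (37.6 to 50.4) in VE cysts and 65.0 CPM (62.5 to 67.5) in Epi cysts. The level in VE cells was 4.92-fold higher (4.62 to 5.24) than in Epi cells of BELAs, and 4.46-fold lower (3.72 to 5.35) than in Epi cells of VE cysts. The difference between these ratios was not tested, since each rests on 1 library. The VE cyst Epi value was uneven over cells. After thinning, 21 of 44 VE cyst Epi cells (47.7%) held Grb10, where genes of like level were seen in a median 84.1%. The tenth of these cells with most Grb10 carried 62.4% of its 93 UMIs. The BELA value rested on a minority of VE cells. Among the 470 BELA VE cells below 200 CPM of Sfrp1 the level was 29.7 (28.2 to 31.3) CPM. The log2 ratio to BELA Epi cells was 0.64 with those cells alone, under the 2-fold line. Among other genes of the IGF axis, Igf2bp2, which binds Igf2 mRNA, was higher in BELA VE cells (154 CPM in BELA VE and 56.3 CPM in BELA Epi cells), and Igf1r, the receptor through which IGF2 promotes growth, was lower (14.3 CPM in BELA VE and 44.0 CPM in BELA Epi cells). These were 1 higher and 1 lower of 8 listed in BELAs, where 13.8% of all genes were higher and 8.95% lower.

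Peg3 (chr7:6703892-6730431), a zinc finger protein, was at 244 CPM (240.4 to 249) in BELA VE and 279.8 CPM (274 to 285) in VE cyst VE cells. It was lower in Epi cells, at 62.7 CPM (60.9 to 64.6) in BELA Epi, 97.8 CPM (88.6 to 108) in VE cyst Epi and 100.3 CPM (97.3 to 103) in Epi cyst Epi cells. It was 3.90-fold higher (3.77 to 4.03) in VE than in Epi cells of BELAs and 2.86-fold higher (2.60 to 3.16) in VE cysts. Its neighbours Usp29, a deubiquitinase family member, and Zim1, another zinc finger gene, stayed at or under 4.64 and 0.620 CPM in every group. Usp29 ran the other way from Peg3, at 1.01 CPM in BELA VE and 1.24 CPM in VE cyst VE cells, against 2.12 CPM in BELA Epi, 4.64 CPM in VE cyst Epi and 4.33 CPM in Epi cyst Epi cells, although all its ratios with 5 CPM added were under 2-fold.

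At the Peg10 cluster the adjacent Peg10 (chr6:4747306-4760517), a retrotransposon-derived gene needed for the placenta, and Sgce (chr6:4674350-4747207), which encodes epsilon-sarcoglycan, moved the same way. Peg10 was at 32.7 CPM (31.2 to 34.2) in BELA VE and 46.2 CPM (43.9 to 48.4) in VE cyst VE cells. Among Epi cells it was at 5.55 CPM (5.02 to 6.12) in BELAs, 3.02 CPM (1.61 to 5.16) in VE cysts and 6.87 CPM (6.09 to 7.73) in Epi cysts. Sgce was at 15.4 CPM in BELA VE and 20.4 CPM in VE cyst VE cells, against 4.37 CPM in BELA Epi, 2.09 CPM in VE cyst Epi and 3.94 CPM in Epi cyst Epi cells. Peg10 was 5.89-fold higher (5.28 to 6.58) and Sgce 3.53-fold higher (3.10 to 4.03) in VE than in Epi cells of BELAs, and the values for VE cysts were 15.3-fold higher (8.92 to 28.8) and 9.78-fold higher (5.12 to 21.5). Without the Sfrp1-high cells described below, the log2 ratio of Sgce in BELAs was 0.98, just under the 2-fold line, and that of Peg10 was 1.52. These genes lie head to head and start close to each other. Across thinned cells their UMIs had a Spearman rho of 0.29 in BELA VE and 0.46 in VE cyst VE cells, given as a description, since cells of a library share their preparation. Ppp1r9a encodes the actin-binding neurabin-1, is imprinted in few tissues and ran against its neighbours. It was at 5.43 CPM in BELA VE and 7.38 CPM in VE cyst VE cells, against 22.2 CPM in BELA Epi, 15.6 CPM in VE cyst Epi and 16.6 CPM in Epi cyst Epi cells. It was 4.09-fold lower (3.61 to 4.64) in BELA VE than in BELA Epi cells. Asb4, an ankyrin repeat protein, was at 0.715 CPM in BELA VE cells and at or under 2.09 CPM elsewhere.

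The Dlk1 and Meg3 cluster carries the paternally expressed Dlk1 (chr12:109452823-109463336), a membrane protein related to Notch ligands, and the maternally expressed noncoding RNAs Meg3 (chr12:109541001-109571726), Rian (chr12:109603940-109661716) and Mirg (chr12:109729764-109749460), which host small nucleolar RNAs and microRNAs. As background, these noncoding RNAs are known to be silenced in some mouse pluripotent stem cell lines. Dlk1 was a VE gene here, at 30.9 CPM (29.5 to 32.4) in BELA VE and 84.9 CPM (81.9 to 88.0) in VE cyst VE cells. Its Epi levels were 0.971 CPM (0.757 to 1.23) in BELA Epi, 2.55 CPM (1.28 to 4.57) in VE cyst Epi and 2.35 CPM (1.90 to 2.87) in Epi cyst Epi cells. Its level was 31.9-fold higher (25.1 to 41.1) in VE than in Epi cells of BELAs and 33.2-fold higher (18.5 to 66.7) in VE cysts, and the BELA Epi level was 3.14% of the BELA VE level. None of the noncoding RNAs passed 2-fold between lineages with 5 CPM added. Meg3 was at 31.6 CPM (30.1 to 33.2) in BELA VE and 32.3 CPM (30.5 to 34.2) in VE cyst VE cells. The Epi levels were 27.3 CPM (26.2 to 28.6) in BELAs, 64.6 CPM (57.2 to 72.6) in VE cysts and 17.0 CPM (15.7 to 18.3) in Epi cysts. Rian was at 11.6 CPM in BELA VE and 15.3 CPM in VE cyst VE cells, against 6.48 CPM in BELA Epi, 26.9 CPM in VE cyst Epi and 4.16 CPM in Epi cyst Epi cells, and Mirg was between 0.856 and 4.41 CPM.

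The Meg3 levels came from very few cells. In thinned cells a Meg3 UMI was seen in 36 of 514 BELA VE cells (7.0%, exact 95% interval 4.95 to 9.57) and 21 of 473 VE cyst VE cells (4.44%), and in 46 of 801 BELA Epi (5.74%), 4 of 44 VE cyst Epi and 13 of 592 Epi cyst Epi cells (2.20%). Without thinning the shares were 9.23% of BELA VE and 4.85% of VE cyst VE cells, and 6.57% of BELA Epi, 8.33% of VE cyst Epi and 2.13% of Epi cyst Epi cells. Cells that had Meg3 had a lot of it, with a median of 16.5 UMIs in BELA VE, 30 in VE cyst VE, 18.5 in BELA Epi, 18.5 in VE cyst Epi and 28 in Epi cyst Epi cells. Other genes of its level were spread over many more cells. Of 2328 genes within 1.5-fold of its level in BELA VE cells, the median was seen in 65.4% of cells, the lowest in 10.9%, and 0 were seen in as few cells as Meg3. The same count was 0 of 2520 genes in VE cyst VE cells, 0 of 2284 in BELA Epi, 0 of 1558 in VE cyst Epi and 1 of 2449 in Epi cyst Epi cells. Meg3 was thus present in a small set of cells in both lineages and all 3 structures, and not at a low level in many.

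**Figure D3:**
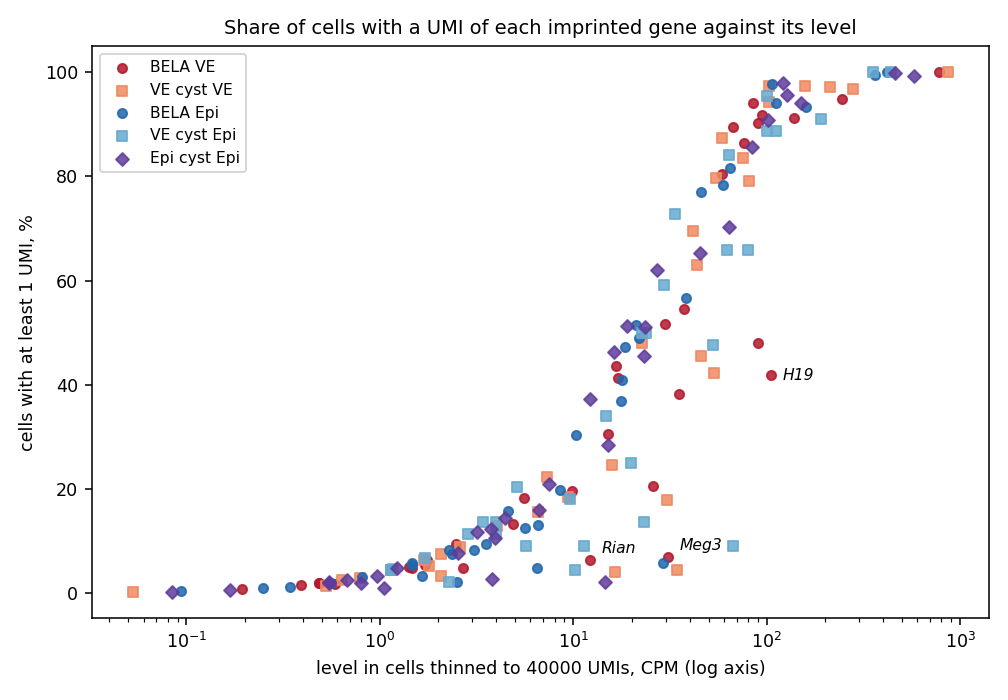
Share of thinned cells with at least 1 UMI of a member (percent) against its level in those cells (CPM, log axis), 1 point per member and group, in 5 groups. Meg3 lies far below the other members of its level, at 7.0% of BELA VE cells, and H19 is at 41.8%.

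The other noncoding RNAs of the cluster were in the same cells. Rian was seen in 28 of the 36 BELA VE cells with Meg3 (77.8%) and in 5 of the 478 without it (1.05%). In VE cyst VE cells the numbers were 17 of 21 (81.0%) and 2 of 452 (0.442%), and in BELA Epi cells 34 of 46 (73.9%) and 5 of 755 (0.662%). All 13 Epi cyst Epi cells with Meg3 had Rian, as did 3 of the 579 without it (0.518%). Mirg followed, in 21 of 36 against 4 of 478 BELA VE cells and in 24 of 46 against 2 of 755 BELA Epi cells. Dlk1 did not do so in VE cells. It was seen in 50% of BELA VE cells with Meg3 and 51.9% of those without, and in 52.4% and 80.3% of VE cyst VE cells, where the set with Meg3 was only 21 cells. In the Epi groups, where Dlk1 was low, it was seen in 2 of 46 BELA Epi cells with Meg3 and 23 of 755 without, in 2 of 4 and 4 of 40 VE cyst Epi cells, and in 4 of 13 (30.8%) and 42 of 579 (7.25%) Epi cyst Epi cells.

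In the Snrpn and Ube3a cluster, Snrpn (chr7:59982495-60140219), which encodes the splicing protein SmN, had the lowest VE over Epi ratio of all members in both structures once 5 CPM had been added, although rarer members such as Nnat had lower plain ratios. It was at 62.3 CPM (60.2 to 64.4) in BELA VE and 40.4 CPM (38.3 to 42.6) in VE cyst VE cells, and its Epi levels reached 416 CPM (411 to 420.3) in BELA Epi, 436 CPM (417 to 457) in VE cyst Epi and 580.4 CPM (573 to 588) in Epi cyst Epi cells. The level in VE cells was 6.67-fold lower (6.44 to 6.92) in BELAs and 10.8-fold lower (10.1 to 11.6) in VE cysts, and the BELA VE level was 15.0% of the BELA Epi level, above the median of 6.05% for Epi-specific genes. Snrpn shares exonic bases on the same strand with Snurf, which was at 0 in every group, and with Gm38393, which was at most 43.7 CPM. Magel2, a MAGE protein of the same paternal class, was low and also higher in Epi cells, at 0.312 CPM in BELA VE and 0.423 CPM in VE cyst VE cells, against 2.39 CPM in BELA Epi, 5.11 CPM in VE cyst Epi and 7.66 CPM in Epi cyst Epi cells.

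Ndn, a MAGE family growth suppressor next to Magel2, differed between structures in both lineages. It was at 14.9 CPM (13.9 to 15.9) in BELA VE and 53.0 CPM (50.6 to 55.4) in VE cyst VE cells. Epi cells had 9.85 CPM (9.14 to 10.6) in BELAs, 17.2 CPM (13.5 to 21.6) in VE cysts and 26.2 CPM (24.7 to 27.8) in Epi cysts. It was 3.08-fold higher (2.44 to 3.94) in VE than in Epi cells of VE cysts, and the ratio in BELAs did not reach 2-fold. Mkrn3, a ring finger protein, stayed between 1.23 and 3.55 CPM. Ube3a (chr7:59228750-59311536), a ubiquitin ligase whose imprint is known mainly from neurons, was near-even at 85.1 CPM in BELA VE and 103 CPM in VE cyst VE cells, against 111 CPM in BELA Epi, 104 CPM in VE cyst Epi and 119.7 CPM in Epi cyst Epi cells. It shares 1803 exonic bases with the antisense Snhg14, a gene outside the list that was chosen after its values were seen. Snhg14 was at 9.19 CPM in BELA VE and 16.5 CPM in VE cyst VE cells, against 67.9 CPM in BELA Epi, 114.9 CPM in VE cyst Epi and 102.8 CPM in Epi cyst Epi cells.

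The Kcnq1 domain holds the paternal noncoding RNA Kcnq1ot1, which silences its neighbours in cis, and the maternally expressed Cdkn1c, Phlda2, Ascl2 and Slc22a18. Kcnq1ot1 was read in all groups, at 128 CPM in BELA VE and 218 CPM in VE cyst VE cells, against 157 CPM in BELA Epi, 207 CPM in VE cyst Epi and 152 CPM in Epi cyst Epi cells. Cdkn1c, the cell cycle inhibitor p57, was at 10.3 CPM (9.46 to 11.2) in BELA VE and 48.9 CPM (46.7 to 51.3) in VE cyst VE cells. Among Epi cells it was at 16.8 CPM (15.8 to 17.8) in BELAs, 54.1 CPM (47.4 to 61.5) in VE cysts and 42.9 CPM (40.9 to 45.0) in Epi cysts. It was thus lowest in both lineages of BELAs. Phlda2, a protein that restrains growth of the placenta, was at 14.5 CPM (13.6 to 15.6) in BELA VE and 15.8 CPM (14.5 to 17.1) in VE cyst VE cells. The Epi levels were 37.9 CPM (36.5 to 39.4) in BELAs, 75.7 CPM (67.7 to 84.4) in VE cysts and 24.1 CPM (22.6 to 25.6) in Epi cysts. The level in VE cells was 2.61-fold lower (2.41 to 2.83) in BELAs and 4.80-fold lower (4.17 to 5.51) in VE cysts. Ascl2, a transcription factor of trophoblast, and Slc22a18, a membrane transporter, stayed between 0.141 and 3.22 CPM and between 0.538 and 1.86 CPM.

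The other members lie alone or in small domains. Gnas, which encodes the stimulatory G protein alpha subunit and further isoforms that 3′ counts cannot separate, was at 766 CPM (758 to 773) in BELA VE and 858 CPM (848 to 867) in VE cyst VE cells. Epi cells had 362 CPM (358 to 366) in BELAs, 318 CPM (301 to 335) in VE cysts and 458 CPM (451 to 465) in Epi cysts. Its level was 2.12-fold higher (2.08 to 2.15) in BELA VE than in BELA Epi cells and 2.70-fold higher (2.56 to 2.85) in VE cyst VE than in VE cyst Epi cells. Its antisense Nespas was at most 15.9 CPM. Sfmbt2, a Polycomb group protein imprinted mainly in extraembryonic tissue, was at 75.8 CPM (73.5 to 78.2) in BELA VE and 78.0 CPM (75.1 to 81.0) in VE cyst VE cells. Among Epi cells it was at 6.41 CPM (5.84 to 7.02) in BELAs, 9.52 CPM (6.83 to 12.9) in VE cysts and 4.21 CPM (3.60 to 4.89) in Epi cysts. This was 11.8-fold higher (10.7 to 13.1) in VE cells of BELAs and 8.19-fold higher (6.02 to 11.4) in VE cysts. Gab1, an adaptor of receptor tyrosine kinases that is imprinted mainly in extraembryonic tissue, had levels of 69.4 CPM in BELA VE and 59.1 CPM in VE cyst VE cells, against 46.7 CPM in BELA Epi, 44.4 CPM in VE cyst Epi and 22.7 CPM in Epi cyst Epi cells and did not pass 2-fold between lineages. Slc38a4, an amino acid transporter also imprinted mainly in extraembryonic tissue, was higher in Epi cells, at 5.12 CPM (4.53 to 5.75) in BELA VE and 1.83 CPM (1.41 to 2.33) in VE cyst VE cells. The Epi levels were 21.3 CPM (20.2 to 22.4) in BELAs, 26.0 CPM (21.4 to 31.3) in VE cysts and 11.9 CPM (10.9 to 13.0) in Epi cysts.

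Mest (chr6:30723547-30748465), an alpha/beta hydrolase fold protein, was at 22.7 CPM (21.4 to 24.0) in BELA VE and 6.85 CPM (6.01 to 7.76) in VE cyst VE cells. Epi cells had 60.3 CPM (58.5 to 62.1) in BELAs, 59.0 CPM (52.0 to 66.7) in VE cysts and 84.1 CPM (81.3 to 87.0) in Epi cysts. It was 2.66-fold lower (2.49 to 2.83) in BELA VE than in BELA Epi cells and 8.61-fold lower (7.2 to 10.3) in VE cyst VE than in VE cyst Epi cells. Mest shares 912 exonic bases with Copg2 on the opposite strand. Copg2 did not share the order of Mest, and was at 23.5 CPM in BELA VE and 27.7 CPM in VE cyst VE cells, against 40.0 CPM in BELA Epi, 30.0 CPM in VE cyst Epi and 27.5 CPM in Epi cyst Epi cells. Nnat, a small membrane protein of the endoplasmic reticulum, was near 0 in VE cells, at 0.514 CPM in BELA VE and 0.676 CPM in VE cyst VE cells, against 9.14 CPM in BELA Epi, 13.0 CPM in VE cyst Epi and 15.3 CPM in Epi cyst Epi cells, and was 17.8-fold lower (12.2 to 27) in BELA VE than in BELA Epi cells. Impact, a regulator of translation that inhibits GCN2, lay between 92.4 and 127 CPM. Plagl1, a zinc finger transcription factor, reached 5 CPM only in VE cyst Epi cells (7.66 (5.27 to 10.8) CPM from 48 cells) and was between 0.277 and 2.14 CPM elsewhere. That value rested mainly on a single cell: after thinning, 2 of 44 VE cyst Epi cells held Plagl1, and 17 of its 18 UMIs were in 1 of them.

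Whether VE cells differed with the presence of Epi cells was read from BELA VE against VE cyst VE cells, which also differ in FGF4, heparin and the length of doxycycline treatment, so these factors cannot be told apart. Members were higher in 3 cases (1.62% of 9795 genes) and lower in 3 (2.93% of genes). Grb10 was 8.70-fold higher (7.80 to 9.73), H19 was 3.91-fold higher (3.65 to 4.19) and Mest was 3.31-fold higher (2.89 to 3.82). Cdkn1c was 4.76-fold lower (4.32 to 5.24), Ndn was 3.56-fold lower (3.28 to 3.87) and Dlk1 was 2.75-fold lower (2.59 to 2.92). Short of 2-fold, Igf2r was 1.82-fold lower (1.75 to 1.89) and Kcnq1ot1 was 1.70-fold lower (1.65 to 1.76). All genes together were shifted by a median log2 ratio of -0.11 in this comparison, and correcting for that shift changed no call.

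The Mest difference rested on the Sfrp1-high cells described below, and the Grb10 difference did in part. This was compared without these 72 cells after the values had been seen. Mest was then at 6.47 CPM in BELA VE and 6.85 CPM in VE cyst VE cells, with a log2 ratio of -0.05. Grb10 kept a log2 ratio of 1.23, H19 1.82, Cdkn1c -1.89, Ndn -1.51 and Dlk1 -1.28. The 12 parietal endoderm genes checked, which mark the other extraembryonic endoderm lineage, summed to 9103 CPM in BELA VE and 23268 CPM in VE cyst VE cells. Of the 12, 10 were lower in BELA VE cells and none was at 0. Of the 8 further Epi genes 4 were higher in BELA VE cells (sums of 2139.5 CPM in BELA VE and 1123 CPM in VE cyst VE cells). Of 9 trophoblast genes 3 were higher (99.7 CPM in BELA VE and 38.5 CPM in VE cyst VE cells, with Tpbpa at 0 in both), as were 5 of 8 AVE genes (247 CPM in BELA VE and 23.9 CPM in VE cyst VE cells). The part of these differences in the values of the called members was not tested.

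Among Epi cells, BELAs and Epi cysts differ in the VE layer, in matrigel, in the doxycycline pulse, which only BELAs received, and in the times spent in 2i + LIF and N2B27. These factors cannot be told apart. Of the 34 members 0 were higher in BELA Epi cells (1.25% of 9635 genes) and 3 were lower (1.34% of genes). Grb10 was at 17.3 CPM in BELA Epi and 65.0 CPM in Epi cyst Epi cells, Cdkn1c at 16.8 CPM in BELA Epi and 42.9 CPM in Epi cyst Epi cells, and Ndn at 9.85 CPM in BELA Epi and 26.2 CPM in Epi cyst Epi cells. These were 3.76-fold lower (3.51 to 4.02), 2.56-fold lower (2.37 to 2.75) and 2.66-fold lower (2.42 to 2.93) in BELA Epi cells. Cdkn1c and Ndn were therefore lower in BELA cells of both lineages than in the cysts, in comparisons that both have the BELA library on 1 side, whereas Grb10 was lower in BELA Epi and higher in BELA VE cells than in the matching cysts. Gab1 was 2.05-fold higher (1.91 to 2.21) in BELA Epi cells with a log2 ratio of 0.90 after 5 CPM had been added. VE rule genes summed to 23.2 CPM in BELA Epi and 2.96 CPM in Epi cyst Epi cells, and of the 8 further Epi genes 5 were higher and 1 lower in BELA Epi cells. The part of RNA from VE cells and of these Epi genes in the member values was not tested.

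The strongest member differences within 1 lineage were found in BELA VE cells with at least 200 CPM of Sfrp1, a secreted Wnt antagonist used here as a marker of anterior VE (AVE), the signalling centre that patterns the epiblast. These were 72 of 542 cells. Without Sfrp1 itself, which chose the cells, the other 7 AVE genes checked summed to 678 CPM in Sfrp1-high and 69.2 CPM in the other BELA VE cells, and all 7 were higher. The cut is a range and not a cell type, with 11 cells between 150 and 200 CPM and 6 between 200 and 250 CPM. Of the members 5 were higher in Sfrp1-high cells (2.79% of 9601 genes) and 1 was lower (1.6% of genes), and together they took 0.280% of UMIs in Sfrp1-high and 0.193% in the other cells.

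Grb10 was at 458 (443 to 474) CPM in Sfrp1-high and 29.7 (28.2 to 31.3) CPM in the other BELA VE cells, 15.4-fold higher (14.5 to 16.4). It reached 200 CPM in 55 of 72 against 13 of 470 cells, and the median cell held 436 CPM and 9.94 CPM. Mest was at 132 (124 to 141) CPM in Sfrp1-high and 6.47 (5.76 to 7.23) CPM in the other cells, 20.4-fold higher (17.9 to 23.3), and it reached 50 CPM in 42 of 72 against 11 of 470 cells. The groups overlapped in both genes: 2 of the 72 Sfrp1-high cells held no Grb10 and 5 held no Mest, and single other cells reached 701 CPM of Grb10 and 140.3 CPM of Mest. In thinned cells Grb10 was seen in 94.1% of Sfrp1-high and 41.0% of the other cells, and Mest in 75% and 12.3%.

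**Figure D4:**
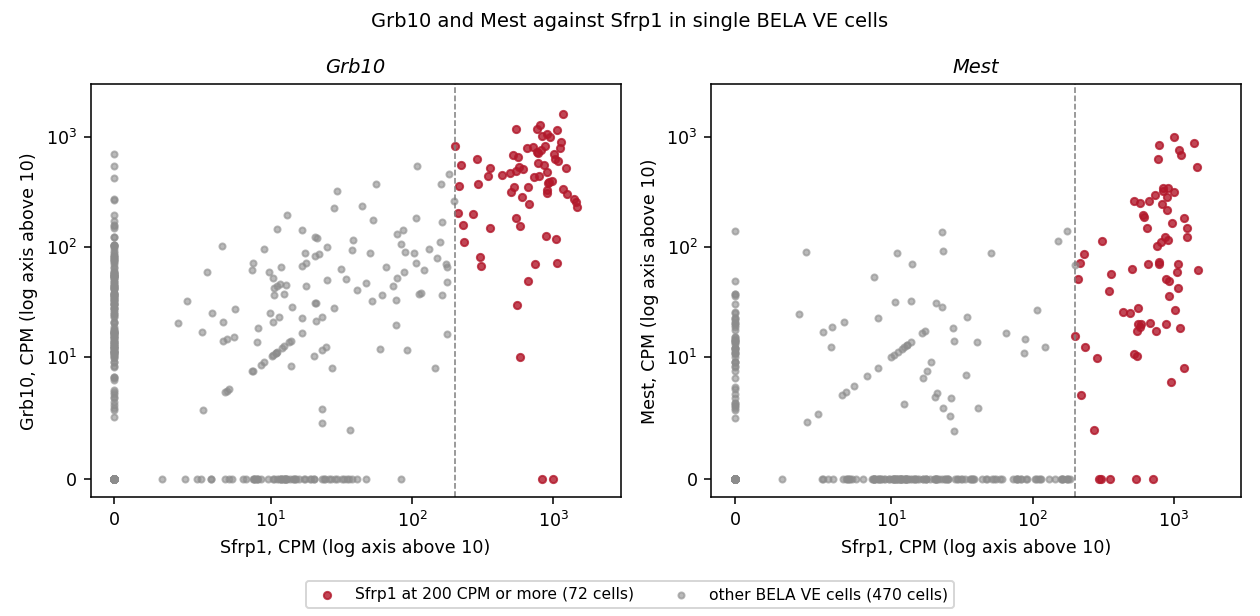
Level of Grb10 and of Mest in each BELA VE cell against its level of Sfrp1, all in CPM, for 72 Sfrp1-high cells (red) and 470 other cells (grey). Grb10 is at a median of 436 CPM in the Sfrp1-high cells and 9.94 CPM in the others.

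Peg10 was at 82.3 CPM in Sfrp1-high and 25.3 CPM in the other BELA VE cells, 3.25-fold higher (2.94 to 3.59), and was seen in 67.6% against 33.9% of thinned cells. Sgce, its neighbour, was at 28.4 CPM in Sfrp1-high and 13.5 CPM in the other BELA VE cells, 2.10-fold higher (1.79 to 2.47) on the plain ratio and short of 2-fold with 5 CPM added. The further genes called higher were rare RNAs: Ascl2 at 6.39 CPM in Sfrp1-high and 0.569 CPM in the other BELA VE cells (45 and 27 UMIs), 11.2-fold higher (6.83 to 18.8), and Asb4 at 5.26 CPM in Sfrp1-high and 0.0421 CPM in the other BELA VE cells (37 and 2 UMIs), a ratio of 125 with an interval of 32.2 to 1069. Neither was called with 20 CPM added, with a minimum of 10 CPM or with Sfrp1 at 100 CPM or more. With Asb4 and Peg10, 2 members of the Peg10 cluster were therefore higher, and Ppp1r9a of the same cluster was at 10.1 CPM in Sfrp1-high and 4.74 CPM in the other BELA VE cells.

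Peg3 was at 409 CPM in Sfrp1-high and 220.1 CPM in the other BELA VE cells, 1.86-fold higher (1.78 to 1.94), and Igf2 at 60.7 CPM in Sfrp1-high and 32.9 CPM in the other BELA VE cells, 1.84-fold higher (1.65 to 2.05), neither past 2-fold. In thinned cells Peg3 did pass 2-fold, at 440 CPM in Sfrp1-high and 216 CPM in the other BELA VE cells. The call on Phlda2 was marginal: it was at 5.4 CPM in Sfrp1-high and 15.9 CPM in the other BELA VE cells from 38 and 755 UMIs, 2.95-fold lower (2.13 to 4.19), with a log2 ratio of -1.01 that was short of 2-fold in 6 alternatives. Impact was 1.77-fold lower (1.60 to 1.97), at 55.3 CPM in Sfrp1-high and 98 CPM in the other BELA VE cells. H19, Igf2r, Snrpn, Kcnq1ot1, Meg3 and Sfmbt2 differed by less than 1.5-fold.

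Across ranges of Sfrp1 the members did not follow 1 course. Grb10 increased over all 6 ranges, with 21.4 CPM in 289 cells without Sfrp1, 24.2 CPM in 143 cells up to 50 CPM of Sfrp1 and 79.9 CPM in 18 cells up to 100 CPM. It was at 130.1 CPM in 20 cells up to 200 CPM, 278 CPM in 14 cells up to 400 CPM and 533 CPM in 58 cells above that. Mest was at 3.27, 9.33, 7.15, 21.1 and 33.5 CPM in the first 5 ranges and 173 CPM in the last. Peg10 lay between 24.1 and 27.7 CPM in the first 4 ranges and was at 44.2 and 98 CPM in the last ones. Peg3 was already at 451 CPM in cells of 50 to 100 CPM of Sfrp1, against 186 CPM in cells without it, and Impact decreased over all 6 ranges, with 101 CPM in the first and 53.0 CPM in the last. The Spearman rho with Sfrp1 across thinned BELA VE cells was 0.51 for Grb10 and 0.43 for Mest, and 0.22 and 0.04 without the Sfrp1-high cells. The 3 middle ranges hold 14 to 20 cells each.

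**Figure D5:**
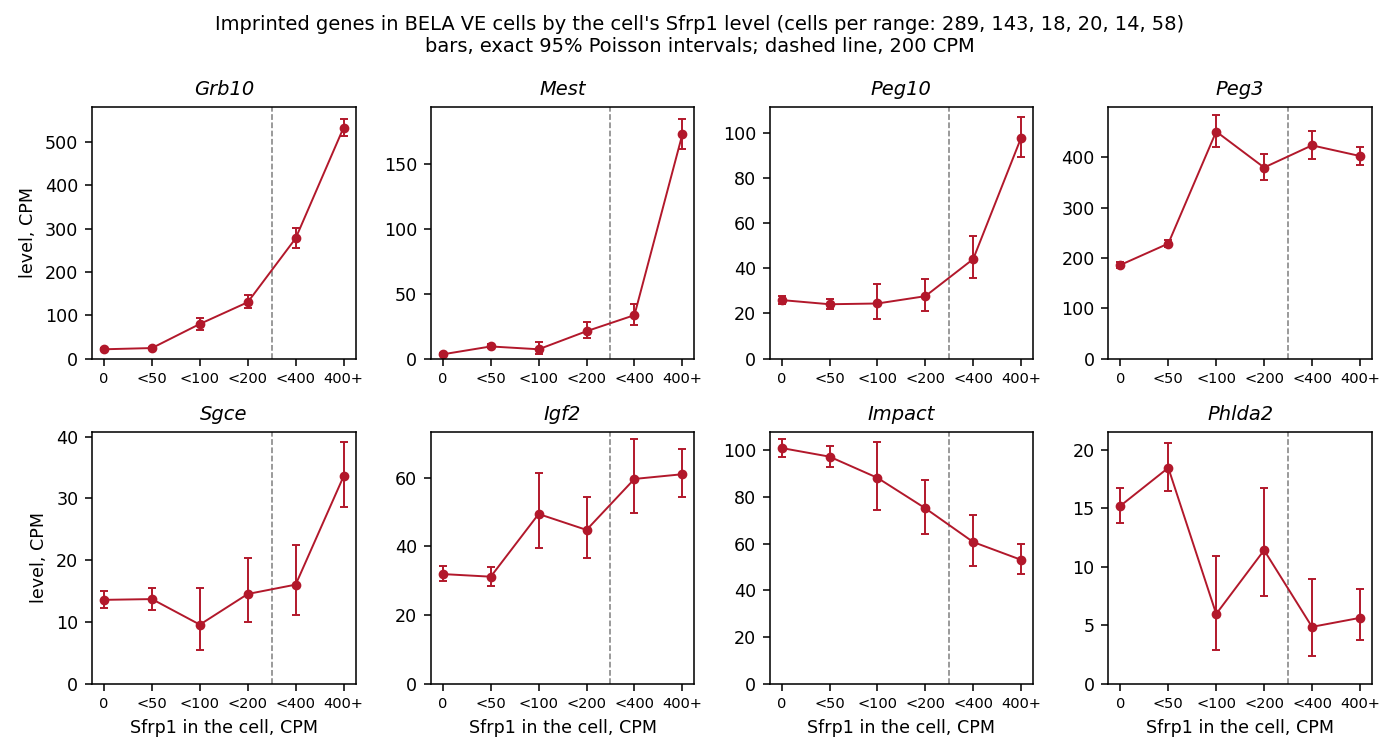
Level in CPM of 8 members in BELA VE cells of 6 ranges of Sfrp1 level (289, 143, 18, 20, 14 and 58 cells), with 95% Poisson intervals. Grb10 increases over the ranges to 533 CPM, Mest and Peg10 are highest in the last range, and Impact decreases.

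Other markers moved with the same cells. Parietal endoderm genes summed to 3688 CPM in Sfrp1-high and 9905 CPM in the other BELA VE cells, with 8 of 12 lower and Thbd at 0 in Sfrp1-high cells. The 9 trophoblast genes checked summed to 289 CPM in Sfrp1-high and 71.7 CPM in the other cells, with 3 of 9 higher (Eomes, which is also on the AVE list, Krt7 and Gata3), while Tpbpa was at 0 in both and Elf5 and Cdx2 stayed under 2 CPM. The median cell had 5.57% mitochondrial UMIs in Sfrp1-high and 4.67% in the other cells, and 86641 and 90600 UMIs. VE rule genes summed to 1769.6 CPM in Sfrp1-high and 3001 CPM in the other cells, with 2 of 4 lower, while of the 8 further VE genes 1 was higher and 1 lower. Of the 8 further Epi genes 2 were higher (Otx2, which is also on the AVE list, and Fgf5) and 1 lower (Dppa5a). The part of these differences in the values of Grb10, Mest and Peg10 was not tested.

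Of 18 genes that keep or reset imprints, 1 was higher and 7 were lower in VE than in Epi cells of BELAs, with a median log2 ratio of -0.84 beside -0.06 over all genes, of which 13.8% were higher and 8.95% lower. The exception was Dnmt3l, a cofactor of de novo methylation, at 115 CPM in BELA VE and 11.5 CPM in BELA Epi cells. The de novo methyltransferase Dnmt3b was at 335 CPM in BELA VE and 958 CPM in BELA Epi cells, the chromatin remodeller Hells at 70.6 CPM in BELA VE and 314 CPM in BELA Epi cells, the methylcytosine oxidase Tet1 at 21.4 CPM in BELA VE and 89.2 CPM in BELA Epi cells, and Uhrf1, which brings DNMT1 to replicating DNA, at 50.3 CPM in BELA VE and 122 CPM in BELA Epi cells. In VE cysts 2 were higher and 7 lower, with a median of -0.72, where 20% of all genes were higher and 11.8% lower. Dnmt3b was the 1 gene of the list that differed between VE cells, at 335 CPM in BELA VE and 94.9 CPM in VE cyst VE cells. Between BELA Epi and Epi cyst Epi cells 0 passed 2-fold in either direction, and Dnmt3l was the 1 gene that passed it between Sfrp1-high cells (54.0 CPM in Sfrp1-high and 124 CPM in other BELA VE cells).

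A further list of 47 imprinted genes outside the members, of which 45 were measured, had 8 higher and 0 lower in VE than in Epi cells of BELAs, and 11 and 0 in VE cysts. Over all genes of at least 5 CPM in either group, 13.8% were higher and 8.95% lower in BELAs, and 20% and 11.8% in VE cysts. The 45 include genes under 5 CPM, which cannot be called, so their counts and these shares are not on like sets. Among the listed genes higher in VE cells were Cd81, a tetraspanin of the Kcnq1 domain (626 CPM in BELA VE and 163 CPM in BELA Epi cells), Jade1, a histone acetylation cofactor (318 CPM in BELA VE and 84.5 CPM in BELA Epi cells), and Dhcr7, the last enzyme of cholesterol synthesis (141 CPM in BELA VE and 42.9 CPM in BELA Epi cells). In Sfrp1-high cells 2 were higher: Ddc, the aromatic amino acid decarboxylase next to Grb10 (50.2 CPM in Sfrp1-high and 10.5 CPM in other BELA VE cells), and Pon2, a paraoxonase of the Peg10 cluster (18.5 CPM in Sfrp1-high and 5.79 CPM in other BELA VE cells). Over all genes of at least 5 CPM in either group, 2.79% were higher in Sfrp1-high cells.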

How the data were processed

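Single-cell RNA was counted with the 10x Genomics 3′ kit, version 3.1, in 3 libraries, 1 each of BELAs, VE cysts and Epi cysts. The deposited count matrices hold raw UMI counts per gene and barcode, made by the authors with Cell Ranger 4.0.0 on mm10 per the labels; the counting of strand and introns is not given in the sources used here. From these counts, cells with fewer than 4000 genes or over 10% mitochondrial UMIs were left out, each other cell was called VE or Epi from 4 genes of either kind (4 VE cyst cells and 1 Epi cyst cell with equal sums counted as Epi), and UMIs were summed per library and lineage. Levels are CPM of those sums with exact 95% Poisson intervals, and folds have exact conditional binomial intervals. Calls need a ratio of 2 after 5 CPM had been added, and the share of all genes called was taken over genes of at least 5 CPM in either group. Shares of cells were read after thinning each cell to 40000 UMIs, which left out 28 BELA VE and 104 VE cyst VE cells, and 67 BELA Epi, 4 VE cyst Epi and 64 Epi cyst Epi cells. Doublets were kept in the main values; Scrublet marked 28 cells in the BELA library, 11 in the Epi cyst and 1 in the VE cyst library, so its marks there are few.

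The members and gene lists were chosen with earlier results of these data known. All 34 members are named, those of at least 5 CPM in any library and lineage with their level in every group and the others by range; outside the members, list genes past 2-fold (at most 5 per list and comparison), the lineage rule genes and Sfrp1 are named. Promoters are from RefSeq (GRCm38.p6) and gene coordinates and overlaps from GENCODE annotation on mm10. Alternatives were another amount of CPM added (1 or 20), equal weight per cell, median-of-ratios scaling, a 10 CPM minimum, looser cell filters, thinning, removal of cells with mixed markers or of doublets, other Sfrp1 thresholds and, added after the values were seen, removal of the Sfrp1-high cells. Python 3.11.15 with numpy 2.4.6, scipy 1.17.1, pandas 2.3.3, scanpy 1.11.5 and matplotlib 3.10.9 was used, and the scripts were tested on simulated data. Columns of other samples were 0.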

Additional observations from a re-analysis of the deposited data

Results flagged for a closer look

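Grb10 was the 1 member whose VE over Epi ratio passed 2-fold in opposite directions in the libraries that held both lineages. The log2 ratio was 2.01 in BELAs, with 85.0 CPM in VE and 17.3 CPM in Epi cells, and -1.72 in VE cysts, with 9.78 CPM in VE and 43.7 CPM in Epi cells. The ratio in VE cysts rests on 48 Epi cells. After thinning, 21 of 44 such cells held Grb10. The tenth of them with most Grb10 carried 62.4% of its 93 UMIs, and the highest count in a cell was 22. The counting interval does not cover this unevenness. With 1 library each, the difference was not tested. In BELA VE cells without the Sfrp1-high cells the log2 ratio was 0.64 and still pointed the other way from VE cysts.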

How the results depend on the processing

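No paired analysis was possible because each aggregate type has 1 library, and for the same reason no replicate could be left out. The calls depended most on the CPM added before the ratio. With 1 CPM added, 10 members were lower in VE than in Epi cells of VE cysts, 5 were higher in BELA VE than in VE cyst VE cells, and 4 were higher and 5 lower in BELA Epi than in Epi cyst Epi cells. With 20 CPM added, 1 member was lower in BELA VE than in BELA Epi cells, 1 was lower in BELA Epi than in Epi cyst Epi cells, and 3 were higher and 0 lower in Sfrp1-high cells. Sfrp1-high cells also had 3 higher members with a minimum of 10 CPM and with Sfrp1 at 100 CPM or more. The count of lower members there was 0 with median-of-ratios scaling, thinned cells, doublets left out, and Sfrp1 at 100 or 400 CPM or more. Members newly called higher in Sfrp1-high cells were Peg3 in thinned cells, and Sgce with 1 CPM added and with Sfrp1 at 400 CPM or more. Of counts of called members, 83 values stayed within 1.5 times and 15 did not. Among log2 ratios of called members and medians over all members, 359 values stayed within the counting interval of the main value. Another 143 moved outside it, and 1 changed sign.

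Without the Sfrp1-high cells, the log2 ratio of Mest in BELA VE over VE cyst VE cells was -0.047, against 1.22 with them; this was the 1 called member that changed sign under any alternative. Over all alternatives the log2 ratio of Grb10 in Sfrp1-high cells ranged between 3.27 and 3.90 and that of Mest between 2.52 and 4.16. Intervals cover counting error only, so spread between preparations is unknown, and members under 5 CPM and the 48 Epi cells of VE cysts carry the least depth.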

Other observations

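Beyond Igf2 and its imprinted partners, 8 genes of the IGF axis were read. In VE cysts 2 were higher in VE than in Epi cells and 0 lower. Between the VE groups 2 were lower in BELAs and 0 higher, one of them Igf1r, with 14.3 CPM in BELA VE and 45.1 CPM in VE cyst VE cells. Neither the Epi groups nor the Sfrp1 groups differed by 2-fold in any of the 8. Of the 45 measured imprinted genes outside the members, 3 (Cobl, Smoc1 and Phactr2) were lower and 0 higher in BELA VE than in VE cyst VE cells, and 0 passed 2-fold between BELA Epi and Epi cyst Epi cells. Over all genes of at least 5 CPM in either group, 2.93% were lower and 1.62% higher in BELA VE than in VE cyst VE cells. Between the Epi groups 1.34% were lower and 1.25% higher in BELAs. Within VE cysts 20% were higher and 11.8% lower in VE cells. Counts of listed genes also include those under 5 CPM.

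Of the other cell types checked, the summed level of 10 neural genes was 7.01 CPM in BELA VE and 2.11 CPM in VE cyst VE cells, against 55.2 CPM in BELA Epi, 36.0 CPM in VE cyst Epi and 59.0 CPM in Epi cyst Epi cells. The sum of 10 mesoderm genes was 90.0 CPM in BELA VE and 186 CPM in VE cyst VE cells, and at most 24.2 CPM in the Epi groups. Few of the 10 differed: 2 were higher and 1 lower in VE than in Epi cells of BELAs, and 1 and 0 in VE cysts. Their median log2 ratio was 0.05 in BELAs and 0.02 in VE cysts. Fibroblast genes summed to at most 31.9 CPM, blood and endothelial genes to at most 39.4 CPM and germ cell genes to at most 66.1 CPM in the 5 groups.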
